A study of Mus musculus with 17 samples.

Results

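The 10 heat shock and chaperone genes described here were followed through cochlear RNA sequencing of 17 mice. They were chosen by name as the rows Hspa1a, Hspa1b, Hspa8, Hsph1, Dnajb1, Hspb1, Hsp90aa1, Hspa5, Hspd1 and Hspe1 of a table of 35285 genes. Each of the 10 was present and passed the filter on low values (3 or more of the compared libraries at an FPKM of 1 or above) in every comparison. All mice were wild-type male C57BL/6J animals, 8 weeks old at delivery. The control group (n = 3) received intraperitoneal saline and no noise. The NE group (n = 7) spent 2 h in noise of 100 dB, from 8 to 16 kHz, described as octave-band in the methods and as broadband in the labels. The brimonidine group (n = 7) was exposed in the same way and was injected intraperitoneally with 1 mg/kg brimonidine, which activates α2-adrenergic receptors, 3 times: on the day before, the day of and the day after the noise. The methods name no injection for the NE group, so injection and drug cannot be told apart in the comparison of brimonidine with NE. Cochleae were taken 2 days after exposure, after hearing tests. The labels give the tissue as cochlear cells and the cell type as interstitial cells, and the methods name cochleae in 1 place and basilar membrane tissue in another as the source of the sequenced RNA.

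Library totals were between 14457734 and 18288854 counted fragments, so the lowest member, Hspa1a, rested on 53 to 180 fragments per library and the highest, Hspa8, on 15750 to 27650. Markers of several other tissues were present in all groups. The summed FPKM of 10 markers of cerebellar and hindbrain neurons was 323 to 851 in the controls, 98.8 to 132 in NE and 75.6 to 186 in brimonidine, and 9 of the 10 were lower in NE than in control. Control 2 stood apart, with a hindbrain sum of 851 and a neutrophil sum (6 markers) of 9137 FPKM, where controls 1 and 3 had 41620 and 44132 and the exposed libraries 37783 to 62223. Hair cell markers (6 genes) summed to only 9.02 to 17.8 FPKM. No marker was at 0 in every library of a group. Because these were bulk samples, fewer cells of a type and less RNA per cell cannot be told apart. The comparisons with control were therefore also made without control 2.

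Heat shock proteins are molecular chaperones, which hold unfolded proteins, refold them or pass them on to degradation. HSP70 proteins work in a cycle of ATP hydrolysis, in which J-domain proteins such as Dnajb1 deliver clients and HSP110 proteins such as Hsph1 exchange the nucleotide, and HSP90 takes over a set of partly folded clients. In the cochlea, HSP70 induction and the transcription factor Hsf1 are known for protection of hair cells against noise, heat and ototoxic drugs.

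Stress acts on many chaperone genes through short elements in their promoters, and the stretches in which such an element was found are shown for that reason. The sequences are from RefSeq on GRCm38.p6, which listed windows of 250 bases before and 50 after a transcript start for 8 of the 10 members, in 11 windows. Heat shock factors bind repeats of GAA in alternating orientation. Capitals mark matches, found on either strand, to the inverted pair GAANNTTC, the everted pair TTCNNGAA or, in Hspa5, the ER stress element, which is CCAAT, then NNNNNNNNN, then CCACG. Matches of the pairs can overlap each other and the longer form, which is GAANNTTC followed by NNGAA.

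Hspa1a: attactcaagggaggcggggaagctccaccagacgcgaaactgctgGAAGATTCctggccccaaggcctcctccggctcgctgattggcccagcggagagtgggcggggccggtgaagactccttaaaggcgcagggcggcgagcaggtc
Hspa1b: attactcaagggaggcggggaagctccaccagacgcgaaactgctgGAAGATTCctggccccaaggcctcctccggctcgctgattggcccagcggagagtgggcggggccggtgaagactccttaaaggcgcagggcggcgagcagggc
Hspb1: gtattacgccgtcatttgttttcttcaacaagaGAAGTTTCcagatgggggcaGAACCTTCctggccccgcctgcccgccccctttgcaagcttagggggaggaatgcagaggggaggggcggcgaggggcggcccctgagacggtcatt
Hsph1: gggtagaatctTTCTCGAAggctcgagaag
Hspe1: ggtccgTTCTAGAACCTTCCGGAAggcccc
Hspd1: ggggccTTCCGGAAGGTTCTAGAAcggacc
Hspa5: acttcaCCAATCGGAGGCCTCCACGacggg

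The Hspa1a stretch lies at chr17:34972157-34972306 and the Hspa1b stretch at chr17:34959239-34959388, both on the minus strand and each ending at the base before its transcript start. The pair differed at 1 of the 150 bases shown and at 4 of the 300 bases of the whole windows, and both held the inverted pair from −104 to −97. Hspb1 (chr5:135887769-135887918, plus strand) held 2 inverted pairs, from −117 to −110 and from −97 to −90. Hsph1 (chr5:149636351-149636380, minus strand) held an everted pair, and 26 of the 30 bases shown lay in annotated exons of Hsph1. It had 2 listed transcript starts, and the windows of both also held the longer form after the start. This form lay from 36 to 48 counted from the start at 149636336, and from 15 to 27 counted from the start at 149636315. The Hspe1 and Hspd1 lines are the same 30 bases, chr1:55088053-55088082, read on the plus and the minus strand. The 2 genes are transcribed away from each other, and these bases lie between their RefSeq starts, 55088148 for Hspe1 and 55087932 for Hspd1. All 30 bases lay in an annotated exon of Hspd1. In the gene positions given with the expression values the 2 genes overlap by 112 bases, from 55088132 to 55088243, which do not include the stretch shown. The element in that stretch is a run of 4 alternating units, in which the longer form matched in 2 overlapping positions. Hspa5 (chr2:34772019-34772048, plus strand) held the ER stress element from −65 to −47, and all 30 bases shown lay in an annotated exon of Hspa5. The windows of Dnajb1 held none of the motifs searched. Among 32851 promoter windows of the same length, 7.86% held the inverted pair, 8.52% the everted pair, 0.603% the longer form, 0.119% the ER stress element and 13.6% TATAAA, which no member's window held.

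The members spanned a wide range of levels. On the FPKM scale, which is per exon length, the mean over the 17 libraries ranked Hspa8 118th among all 35285 genes, Hspa5 241st, Hsp90aa1 251st, Hspd1 624th, Hspb1 1261st, Hspe1 2007th, Dnajb1 3611th, Hsph1 5653rd, Hspa1b 7958th and Hspa1a 12515th. In NE the order was Hspa8, Hspa5, Hsp90aa1, Hspd1, Hspb1, Hspe1, Dnajb1, Hsph1, Hspa1b and Hspa1a, and it was the same in brimonidine. In control, Hsp90aa1 stood above Hspa5, by mean and in 2 of 3 libraries, while Hspa5 was the higher in 7 of 7 NE libraries and in 5 of 7 brimonidine libraries. Neighbours whose ranges overlapped in all groups were Hspa5 and Hsp90aa1, and Hsph1 and Hspa1b, although Hsph1 was above Hspa1b within each of the 17 libraries. Hspb1 and Hspe1 overlapped in control and NE, where Hspb1 was the higher in 3 of 3 and in 5 of 7 libraries. Ranges also overlapped for Hspa8 and Hspa5 in brimonidine, for Hspd1 and Hspb1 in NE and for Dnajb1 and Hsph1 in control, and all other neighbours were apart.

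**Figure D1:**
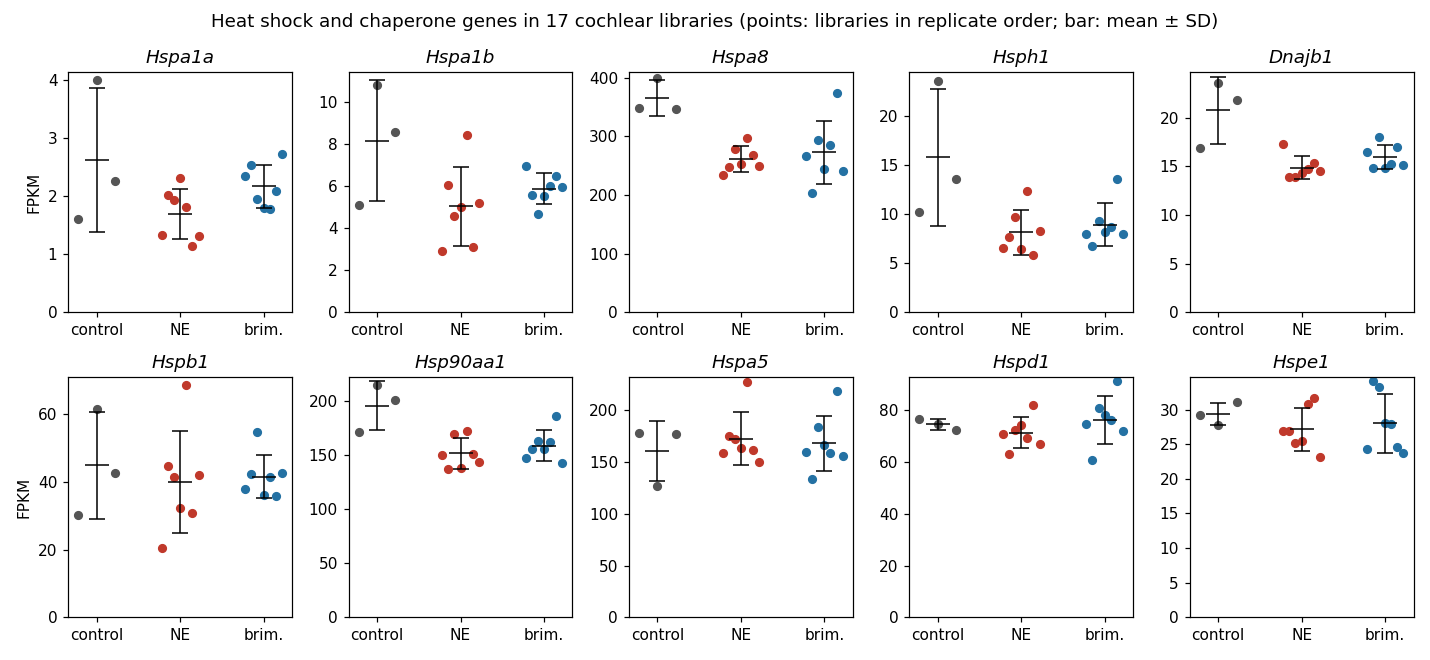
FPKM (vertical axes, each from 0) of the 10 genes in the control, NE and brimonidine (brim.) libraries; points are libraries in replicate order and bars give the mean and SD. For Hspa8 the 7 NE points, 235 to 298, lie below the 3 control points, 347 to 400.4, and 1 brimonidine point, 374, reaches into the control range.

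Some of these levels depend on how reads were assigned between near-identical genes. Of all stretches of 100 bases in the main transcript, 48.6% of those of Hspa1a and 49.9% of those of Hspa1b also occurred in another gene, mainly in each other. The share was 62.8% for Hspa8, 47.5% for Hsp90aa1, 42.7% for Hspb1, 26.9% for Hspd1 and 20.4% for Hspe1, mainly with processed copies such as Gm15459, Gm12346, Hsp25-ps1 and Hspd1-ps3. No shared stretch was found for Hsph1, Dnajb1 or Hspa5. The values of the first 7 genes are therefore less certain than those of the last 3.

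The comparison of NE with control asked how these genes stood 2 days after noise, and the saline injections of the controls cannot be told apart from the absence of noise in it. Lower in NE were 3 of the 10 genes, where 12% of all genes tested were lower, and the number was 1 without control 2. Hspa8 fell to 0.715 of its control mean, Dnajb1 to 0.715 and Hsph1 to 0.514. Hsp90aa1 was at 0.774 of control and missed the threshold. The inducible HSP70 genes, the small heat shock protein and the ER and mitochondrial chaperones did not pass the test.

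Hspa8, the constitutive HSP70 of the cytosol, had 349, 400.4 and 347 FPKM in controls 1, 2 and 3. In NE it ranged from 235 through a median of 253 to 298, and in brimonidine from 204 through 267 to 374. Every NE library lay below every control library, and control 2 was the highest of all 17. NE differed from control by a log2 fold change of −0.48 (SE 0.12, limma adjusted p = 0.0211), and the exact two-sided permutation test gave 0.00833, the smallest p that 7 against 3 libraries allow.

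Hsph1, the HSP110 that exchanges nucleotide on HSP70, had 10.2, 23.7 and 13.6 FPKM in the controls. It ranged from 5.86 through a median of 7.68 to 12.4 in NE and from 6.71 through 8.20 to 13.6 in brimonidine. NE 5, the highest of its group, lay above control 1, and control 2 lay far above the other 16 libraries. The difference was −0.84 on the log2 scale (SE 0.25, limma adjusted p = 0.0491, exact permutation p = 0.0167).

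Dnajb1, the J-domain partner of inducible HSP70, had 16.9, 23.5 and 21.8 FPKM in the controls. It ranged from 13.8 through a median of 14.5 to 17.2 in NE and from 14.8 through 15.3 to 18.0 in brimonidine. Its 7 NE libraries were close together, and NE 1 was the only NE library above control 1. Its log2 fold change was −0.45 (SE 0.10, limma adjusted p = 0.0168, exact permutation p = 0.0167).

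Hsp90aa1, the stress-inducible HSP90 of the cytosol, had 172, 215 and 201 FPKM in the controls. It ranged from 137 through a median of 149.9 to 172 in NE and from 143 through 156 to 186 in brimonidine. All 7 NE libraries were below the control mean and 6 were below every control. A log2 fold change of −0.37 (SE 0.12) did not pass (limma adjusted p = 0.0583, exact permutation p = 0.0167). Hsp90aa1 passed under quantile normalization (−0.68, adjusted p = 0.0262), with all 17 libraries in 1 model (0.0140) and with array weights (0.00401).

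In all, 3 of the 10 members were lower and 0 higher in NE at an adjusted p under 0.05 (limma), against 12% of the 15950 genes tested that were lower and 2.12% that were higher. With the additional minimum of 1 on the log2 scale 0 of the 10 were called, against 5.76% of all genes. Only Hspa8 had groups that did not overlap, a pattern found for 15% of all genes in that direction. The median log2 fold change was −0.38 over the 10 members, 9 of them below 0, and −0.044 over all genes.

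Leaving out single libraries changed the calls of Hsph1 and Dnajb1, but not that of Hspa8. Hsph1 did not pass without NE 1, 2, 3, 4, 6 or 7 (adjusted p = 0.0593 to 0.0900), while Hspa8 and Dnajb1 passed without any single NE library. Without control 2 the log2 fold change was −0.42 for Hspa8 (adjusted p = 0.0389), −0.35 for Dnajb1 (0.0757), −0.52 for Hsph1 (0.232) and −0.30 for Hsp90aa1 (0.165), so that 1 of the 10 was called. Without control 3 it was also 1 (Hspa8, adjusted p = 0.0425), and without control 1 it was 4, with Hsp90aa1 (adjusted p = 0.0286) added and Hsph1 at −1.09. Hspa8 passed without any single control, but not after rescaling by the median ratio (−0.37, adjusted p = 0.0806), where Dnajb1 did (−0.34, adjusted p = 0.0437). Under quantile normalization Hspa8 was at −0.76 (adjusted p = 0.0129). The hindbrain marker sum was also lower in each NE library (at most 132 FPKM) than in each control (at least 323 FPKM). The part of those cells in the fall of Hspa8, Hsph1 and Dnajb1 was not tested.

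**Figure D2:**
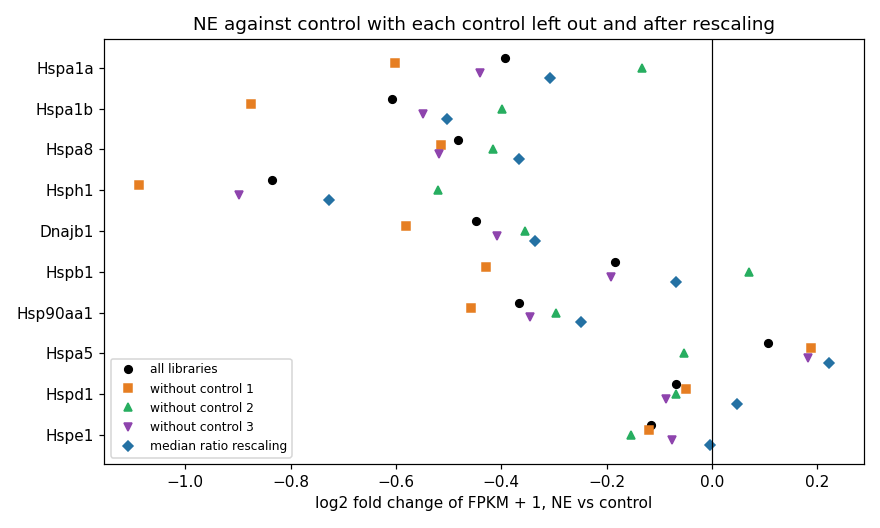
Log2 fold change of FPKM + 1 (horizontal axis), NE against control, for each gene with all libraries, without each control in turn and after rescaling by the median ratio of genes. Hsph1 moves from −1.09 without control 1 to −0.52 without control 2, whereas Hspa8 lies between −0.52 and −0.37 in the fits plotted.

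Hspa1a and Hspa1b encode almost the same inducible HSP70 and lie 9951 bases apart on the minus strand of chromosome 17. Hspa1a had 1.61, 4.00 and 2.26 FPKM in the controls, 1.13 to 2.30 in NE with a median of 1.81, and 1.78 to 2.72 in brimonidine with a median of 2.08. Hspa1b had 5.11, 10.8 and 8.61 FPKM in the controls, 2.91 to 8.43 in NE with a median of 4.99, and 4.66 to 6.99 in brimonidine with a median of 5.97. For both genes control 2 was the highest of all libraries and the groups overlapped. In NE the log2 fold change was −0.39 (SE 0.20, limma adjusted p = 0.199) for Hspa1a and −0.61 (SE 0.27, adjusted p = 0.152) for Hspa1b. Without control 2 these values were −0.13 and −0.40.

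Hspb1, the small heat shock protein that binds unfolded proteins and actin without ATP, was among the most variable members. It had 30.4, 61.7 and 42.6 FPKM in the controls, 20.6 to 68.6 in NE with a median of 41.6, and 36.0 to 54.9 in brimonidine with a median of 41.6. The extremes of all 17 libraries, NE 1 and NE 5, were both in NE. Against control the log2 fold change was −0.18 (95% confidence interval −0.88 to 0.51, limma adjusted p = 0.71), and it was 0.070 without control 2.

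Hspa5, the HSP70 of the endoplasmic reticulum (BiP), was the 1 member whose mean was higher in NE than in control, and it did not pass the test. It had 179, 127 and 177 FPKM in the controls, 151 to 227 in NE with a median of 164, and 133 to 219 in brimonidine with a median of 160.2. Control 2, the highest library for Hspa8 and Hsph1, was the lowest for Hspa5. Its log2 fold change in NE was 0.11 (interval −0.23 to 0.44, limma adjusted p = 0.65), and −0.053 without control 2. The summed FPKM of 6 plasma cell markers, cells rich in ER chaperones, was also lowest in control 2, at 137 against 641 and 464 in controls 1 and 3 and 454 to 1189 in NE. Its part in the level of Hspa5 was not tested.

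Hspd1 and Hspe1, the barrel and the lid of the mitochondrial chaperonin, did not pass the test. Hspd1 had 76.4, 74.4 and 72.4 FPKM in the controls and 62.9 to 81.9 in NE, with a log2 fold change of −0.068 (interval −0.27 to 0.13, limma adjusted p = 0.623). Hspe1 had 29.2, 27.8 and 31.1 FPKM in the controls and 23.1 to 31.6 in NE, with −0.12 (interval −0.34 to 0.11, adjusted p = 0.437). Without control 2 these were −0.068 and −0.15. These intervals leave out a change of the size seen for Hsph1.

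**Figure D3:**
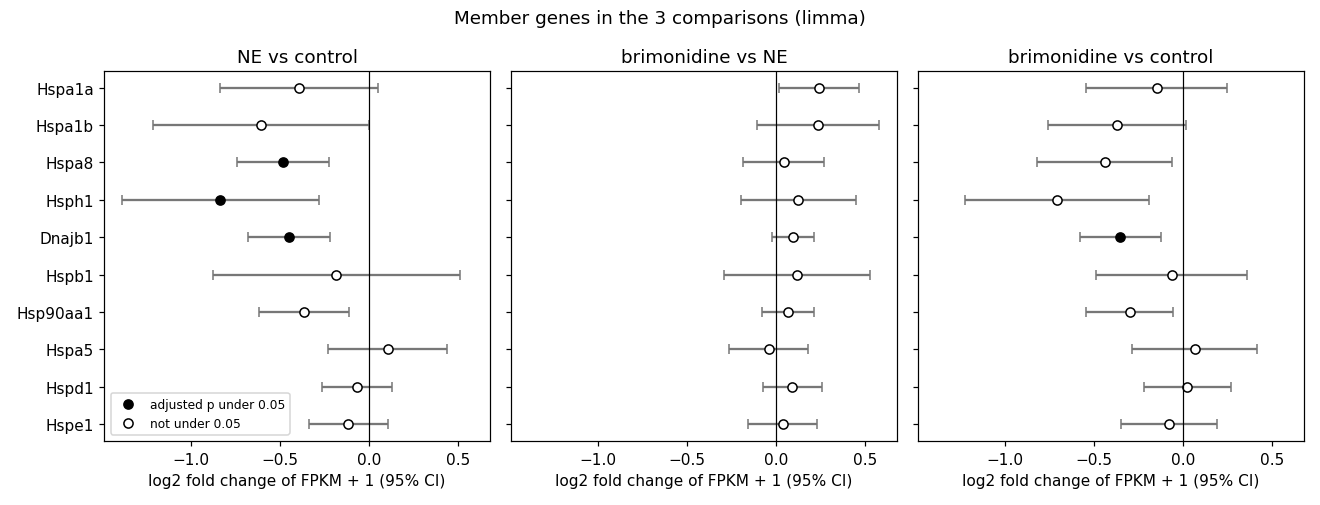
Log2 fold change of FPKM + 1 with its 95% confidence interval from limma (horizontal axes) for the 10 genes in the 3 comparisons; filled points have an adjusted p under 0.05. Filled points are Hspa8, Hsph1 and Dnajb1 in NE against control, none in brimonidine against NE, and Dnajb1 in brimonidine against control.

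The comparison of brimonidine with NE asked whether the drug changed these genes in noise-exposed mice. None of the 10 differed at an adjusted p under 0.05 (limma), and of 15707 genes tested 0.00637% were higher and 0% lower. At an unadjusted p under 0.05, 1 member was higher and 0 were lower, against 3.3% and 2.46% of all genes. That member was Hspa1a, with a log2 fold change of 0.24 (SE 0.11, p = 0.0348, adjusted p = 0.857, exact permutation p = 0.0478). All 7 brimonidine libraries were above its NE mean of 1.69 FPKM, and the groups overlapped. For Hspa1b the log2 fold change was 0.24 (interval −0.10 to 0.58).

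The intervals for brimonidine against NE show how large a difference could have been missed. They were narrowest for Dnajb1 (log2 fold change 0.096, interval −0.023 to 0.22) and Hsp90aa1 (0.067, −0.079 to 0.21). Hspa8 was at 0.044 (−0.18 to 0.27), Hsph1 at 0.13 (−0.20 to 0.45) and Hspa5 at −0.040 (−0.26 to 0.18). Hspd1 was at 0.093 (−0.072 to 0.26), Hspe1 at 0.039 (−0.16 to 0.23) and Hspb1 at 0.12 (−0.29 to 0.53).

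Brimonidine and control were compared with the same 3 control libraries as NE, so the values below are not independent of those above. Dnajb1 alone was lower at an adjusted p under 0.05, by a log2 fold change of −0.35 (SE 0.10, limma adjusted p = 0.0420, exact permutation p = 0.025), where 12.3% of 15947 genes were lower and 3.47% higher. With the minimum fold change 0 of the 10 were called, against 5.73% of all genes, and 0 had groups that did not overlap, against 14.3% below control. Hsph1 (−0.71, adjusted p = 0.0630), Hsp90aa1 (−0.30, 0.0855) and Hspa8 (−0.44, 0.0979) did not pass. For Hspa8, 6 of 7 brimonidine libraries were below every control and brimonidine 6, at 374 FPKM, was above controls 1 and 3. Without control 2, Dnajb1 was at −0.26 (adjusted p = 0.148), Hsph1 at −0.39 (0.248), Hsp90aa1 at −0.23 (0.204) and Hspa8 at −0.37 (0.235), and among the other members Hspa1a (0.11) and Hspb1 (0.19) turned to a positive sign and Hspa5 (−0.093) to a negative one. Without control 1 the number lower was 4, without control 2 or 3 it was 0, and without single brimonidine libraries it was 0 to 2. Dnajb1 passed without brimonidine 3 (adjusted p = 0.0409), and it did not pass when any other single brimonidine library was left out (0.0608 to 0.0803). The 2 members called without brimonidine 6 were Hsph1 (0.0379) and Hspa8 (0.0494). Of the hindbrain markers, 10 of 10 were lower in brimonidine than in control (median log2 fold change −3.86). Their part in the values of the members was not tested.

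The members differed in how much they varied between mice of a group. In NE the coefficient of variation was 37.6% for Hspb1, 37.1% for Hspa1b, 27.8% for Hsph1 and 25.7% for Hspa1a, against a median of 13.2% over 16416 genes. The other 6 were between 7.92% (Dnajb1) and 14.7% (Hspa5). In brimonidine Hsph1 was at 24.8%, Hspa1a at 17.0%, Hspb1 at 15.6% and Hspa1b at 12.6%, against a median of 11.7% over the same genes. Hspa8 was at 19.8% in brimonidine against 8.27% in NE. Its extremes in brimonidine were brimonidine 2 (204 FPKM) and brimonidine 6 (374 FPKM). The difference in spread between the groups was not tested.

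Within the exposed groups some members varied together by Pearson's r, but not by Spearman's rho after adjustment. How often such pairs occur among all genes was not computed. Over the 14 exposed libraries, with group means subtracted, the correlation of log2(FPKM + 1) was computed for all 45 pairs. For 5 pairs Pearson's r had a permutation p under 0.05 after Benjamini-Hochberg adjustment over the 45, and for 0 pairs did Spearman's rho. Hspa5 and Hsph1 had r = 0.858 (p = 0.00062, adjusted 0.0093) and rho = 0.71 (p = 0.00911, adjusted 0.102), with 0.772 within NE and 0.963 within brimonidine. Without NE 5 and brimonidine 6, the libraries farthest from the median in Hsph1, r was 0.536. In each pair the 2 libraries left out were chosen by the values of 1 gene only. Hspa8 and Hspa5 had r = 0.851 (p = 0.00029, adjusted 0.00765) and rho = 0.745 (p = 0.00418, adjusted 0.0849), and r = 0.677 without brimonidine 2 and 6. Those 2 were the farthest in Hspa8, and NE 5, the highest library for Hspa5, stayed in. Hspa8 and Hsph1 had r = 0.785 (p = 0.00034, adjusted 0.00765) and rho = 0.71 (p = 0.00566, adjusted 0.0849), and r = 0.636 without brimonidine 2 and 6.

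The other 2 pairs joined these genes to Hsp90aa1. Hsph1 and Hsp90aa1 had r = 0.772 (p = 0.00433, adjusted 0.03915) and rho = 0.609 (p = 0.0298, adjusted 0.263), and r = 0.453 without NE 5 and brimonidine 6. Hspa8 and Hsp90aa1 had r = 0.714 (p = 0.00435, adjusted 0.03915) and rho = 0.771 (p = 0.00297, adjusted 0.0849), and r = 0.757 without brimonidine 2 and 6. Hspa5 was thus in 2 of the 5 pairs, with Hspa8 and Hsph1, while among the controls the library highest in Hspa8 was lowest in Hspa5. The 2 chaperonin genes that share a start region, Hspd1 and Hspe1, had r = −0.13 (p = 0.701, adjusted 0.77) and rho = 0.138 (p = 0.658, adjusted 0.80), with 0.444 within NE and −0.422 within brimonidine. Hspa1b and Hspb1 had r = 0.925 within NE and −0.771 within brimonidine, with r = 0.715 pooled (p = 0.0333, adjusted 0.182), rho = 0.442 (p = 0.175, adjusted 0.414) and r = 0.113 without NE 1 and NE 5.

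**Figure D4:**
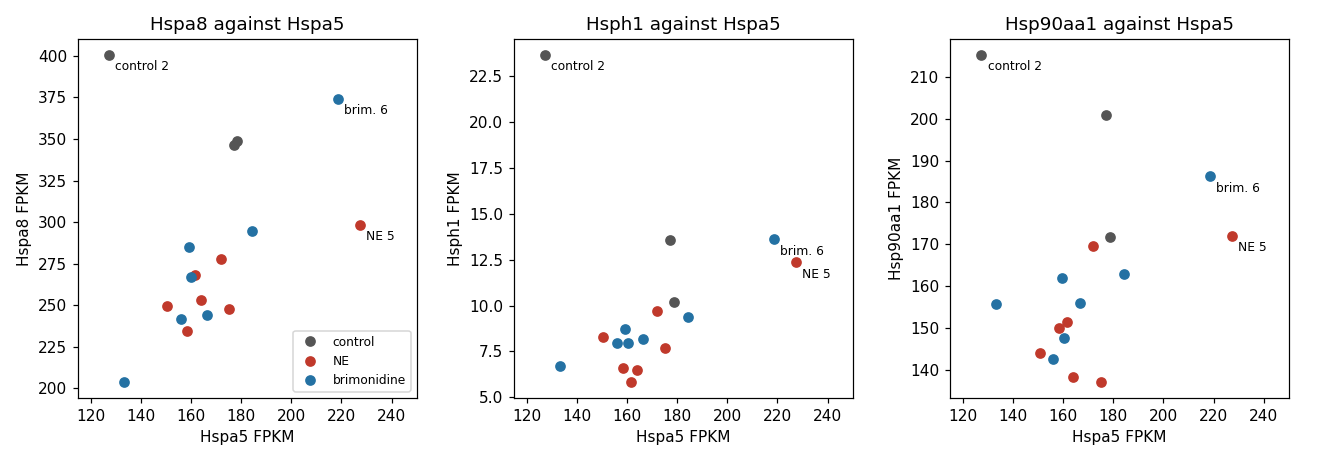
FPKM of Hspa8, Hsph1 and Hsp90aa1 (vertical axes) against FPKM of Hspa5 (horizontal axes) in the 17 libraries, coloured by group; axes do not start at 0. NE 5 and brimonidine 6 are high in Hspa5 (227 and 219 FPKM), and control 2 combines the lowest Hspa5 (127 FPKM) with the highest value of each of the other genes.

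Genes most like each member in the same 14 libraries were looked for among 16406 genes, as a description without a test. The gene most like Hsp90aa1 was St13 (r = 0.909), a co-chaperone that binds HSP70, and St13 was also among the 2 most like Hsph1 (r = 0.876, after Ubfd1 with 0.879). Pdia4, a disulfide isomerase of the ER, was the second for Hspa5 (r = 0.863, after Traj24 with 0.904). For Hspe1 they were Rpl14 (0.937), a protein of the cytosolic ribosome, and Mrps18c (0.926), a protein of the mitochondrial ribosome. For Hspd1 they were Kpna2 (0.895), an importin, and Rrm1 (0.887), a subunit of ribonucleotide reductase. For Hspa8 the first was Ticam1 (0.912), for Hspb1 Fzd2 (0.912), for Hspa1a Pard6b (0.851) and for Dnajb1 Tmem86b (0.818). With 14 libraries and so many genes, high coefficients also occur between unrelated genes.

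The other chaperone genes were described from 10 lists with 99 genes in all, of which 96 passed the filter in NE against control. Of these, 9 were lower and 1 was higher in NE at an adjusted p under 0.05 (limma), which is 9.38% and 1.04% against 12% and 2.12% of all genes, and the median log2 fold change of the 96 was −0.039. The number lower was 16 without control 1, 2 without control 2 and 7 without control 3. Of all genes 16.4%, 5.86% and 9.72% were lower in these fits. With 1 NE library left out in turn it was 3 to 5, against 8.9% to 10.7% of all genes. The number lower was 20 (and 5 higher) with all 17 libraries in 1 model and 19 (and 8 higher) with array weights. By the median ratio or quantile normalization it was 5 (and 2 higher in each). Without the filter it was 3 (and 0 higher), and after rescaling to equal totals 2 (and 1 higher). Of all genes, 19% were lower and 8.07% higher in 1 model, and 23.1% and 14.3% with array weights. The shares were 10.6% and 3.99% by the median ratio and 9.44% and 5.94% by quantile normalization. They were 6.43% and 0.598% without the filter and 8.6% and 1.47% after rescaling to equal totals. The J-domain list gave 4 of 14 genes lower, 0 higher and a median of −0.28. Dnajc6 (auxilin, which uncoats clathrin vesicles in neurons) fell from 10.3 ± 5.26 FPKM (SD, n = 3) to 3.35 ± 0.591 (n = 7), a log2 fold change of −1.29 (limma adjusted p = 0.00291). Dnaja1 fell from 27.5 ± 5.34 to 19.0 ± 1.84 FPKM (−0.50, limma adjusted p = 0.0204), and Dnajb2 and Dnajb5 fell by 0.66 and 0.57 on the log2 scale (both with an adjusted p of 0.0489). Without control 2 Dnajc6 was at −0.93 (adjusted p = 0.00205), and Dnaja1 (−0.37, adjusted p = 0.0920), Dnajb2 (−0.32, 0.0979) and Dnajb5 (−0.27, 0.0909) did not pass, which left 1 of the 14 lower. Dnajc6 moved in the same direction as the hindbrain markers, whose part was not tested.

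In the HSP70 and HSP110 list 2 of 8 genes were lower (25%, against 12% of all genes) and 0 higher, with a median of −0.14. Hspa2, an HSP70 best known from spermatogenesis, fell from 9.63 ± 1.11 FPKM (SD, n = 3) to 6.84 ± 0.325 (n = 7), a log2 fold change of −0.43 (limma adjusted p = 0.0044), and it was at −0.37 (adjusted p = 0.0150) without control 2. Hspa4l, a relative of Hsph1, was at −0.64 (adjusted p = 0.0475) and at −0.37 (adjusted p = 0.1996) without control 2. Among 18 co-chaperones of HSP70 and HSP90, 3 were lower (16.7%, near the 12% of all genes) and 0 higher, with a median of −0.22. They were Chordc1, which binds HSP90, at −0.41 (adjusted p = 0.0354), Bag4 at −0.40 (0.0361) and Hspbp1 at −0.28 (0.0440). Bag4 and Hspbp1 are nucleotide exchange factors of HSP70. None of these 3 passed without control 2.

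The only 1 of the 96 that was higher in NE was Hspb7, a small heat shock protein of heart and skeletal muscle, in a list of 6 tested genes with 0 lower. It rose from 2.84 ± 1.12 FPKM (SD, n = 3) to 7.00 ± 2.46 (n = 7), a log2 fold change of 1.03 (limma adjusted p = 0.0356), and in brimonidine to 8.16 ± 2.07 (n = 7), 1.26 (adjusted p = 0.00307). Without control 2 it was at 1.26 (adjusted p = 0.0377) in NE and 1.49 (adjusted p = 0.00169) in brimonidine, and in NE it did not pass without control 1 (0.90, adjusted p = 0.0740) or control 3 (0.93, adjusted p = 0.0944), without NE 2, 3, 4, 5 or 7, without the filter on low values or in the voom fit of recovered fragments. Markers of skeletal muscle summed to 210.0, 551.7 and 243 FPKM in the controls, 391 to 939 in NE and 315 to 818 in brimonidine, and 4 of 8 tested were higher in NE (median log2 fold change 1.02) and 1 of 8 in brimonidine (0.75). Their part in the rise of Hspb7 was not tested.

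No gene passed in NE against control among 8 subunits of the cytosolic chaperonin CCT (median log2 fold change 0.031), 3 HSP90 genes (0.054), the 4 genes Hsf1, Hsf2, Hsf4 and Hsbp1 of the heat shock factor list (−0.27), 16 ER chaperones and folding enzymes (0.20), 10 regulators of the unfolded protein response (0.16) or 9 genes of mitochondrial protein quality control (−0.0084). At an unadjusted p under 0.05 (limma), which 22.3% of all genes passed as lower and 10.6% as higher, the factors Hsf1 and Hsf2 and the regulator Hsbp1 were lower, 1 regulator of the unfolded protein response was lower and 3 were higher, 1 mitochondrial gene was lower, and 0 of the CCT, HSP90 and ER genes passed. Limma's voom on recovered fragments gave 0 adjusted calls in the same lists. In brimonidine against NE 0 of 96 genes passed by either fit, with 3 lower and 4 higher at an unadjusted p under 0.05. Of all genes 2.46% were lower and 3.3% higher at that limit (limma on log2(FPKM + 1)). In brimonidine against control 8 of 95 were lower (Dnajc6, Hspa2, Grpel2, Dnaja1, Hspbp1, Dnajb5, Dnajb2 and Bag4) and 1 was higher (Hspb7), that is 8.42% and 1.05% against 12.3% and 3.47% of all genes. The number lower in brimonidine against control was 17 (and 5 higher) without control 1, 4 (and 4 higher) without control 2, 7 without control 3 and 4 to 6 with 1 brimonidine library left out in turn. The range of the share of all genes lower in these fits is given further below, and the share higher is not reported here. The number lower was 20 (and 10 higher) with array weights and 14 (and 4 higher) with all 17 libraries in 1 model. It was 5 (and 1 higher) without the filter and 2 (and 1 higher) after rescaling to equal totals. Of all genes, 24.7% were lower and 18.7% higher with array weights, and 18.1% and 9.8% in 1 model. The shares were 6.58% and 0.922% without the filter and 8.9% and 2.89% after rescaling to equal totals.

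**Figure D5:**
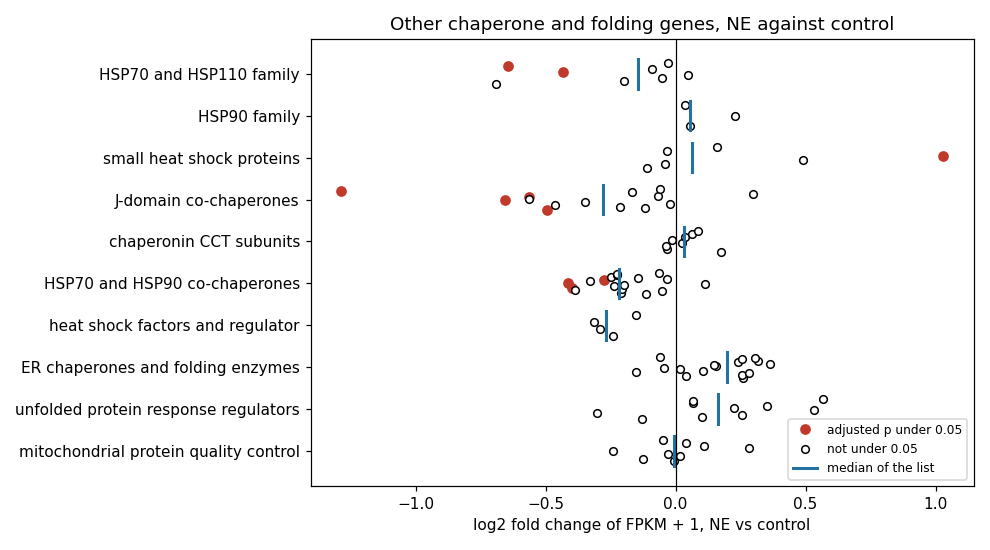
Log2 fold change of FPKM + 1, NE against control (horizontal axis), of the 96 other chaperone and folding genes by list; filled points have an adjusted p under 0.05 and bars mark each list's median. Dnajc6 lies at −1.29 and Hspb7 at 1.03, and the median of the ER list (0.20) lies above 0 while that of the J-domain list (−0.28) lies below.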

How the data were processed

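RNA was sequenced from 3 control, 7 NE and 7 brimonidine mice (TruSeq Stranded mRNA, NovaSeq). The authors deposited FPKM values, counted fragments divided by exon length and by the library total, with no further scaling between libraries. The submitters' processing notes name Trimmomatic, HISAT2, HTSeq, Cufflinks and mm10, and the annotation and strand setting of the counting are not given in the sources used here. The study's DESeq2 test was not run here.

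Genes that reached an FPKM of 1 in 3 or more compared libraries were fitted with limma 3.58.1 (lmFit, eBayes with trend, R 4.3.3) on log2(FPKM + 1), a scale that understates changes of low genes, with the 2 groups compared in each model. P-values were adjusted over all genes tested (Benjamini-Hochberg, 0.05). Single genes were also compared with exact two-sided permutation tests, whose smallest p is 0.00833 for 7 against 3 and 0.000583 for 7 against 7. Confidence intervals are at 95%. Correlations were tested with 100000 permutations within groups. Whole fragments were recovered from FPKM steps for 99.7% of genes above 0 (92.0% of values whole within 0.05 fragments at GENCODE M21 exon lengths) and fitted with limma's voom as an alternative. The limma fit on log2(FPKM + 1) was also run on simulated data to check the code, and the outcome is not reported here. Gene positions are on GRCm38. Figures used matplotlib 3.10.9, other steps Python 3.11.15, numpy 2.4.6, pandas 2.3.3 and scipy 1.17.1.

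Groups came from the sample labels, which do not say whether libraries were processed together or by group. The p-values set group differences against the spread between these libraries. They cannot separate treatment from any difference in dissection or processing between the groups. The 10 members and the gene lists were chosen with earlier results of these data known. Other genes were named where they passed the adjusted p in a list, at most 4 per list and direction by smallest p, and as the 2 genes most like each member, of which not all are reported here. The everted pair of the heat shock element was added after the sequences were seen.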

Additional observations from a re-analysis of the deposited data

Results flagged for a closer look

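In 3 groups of 7 libraries a value stood far from the others by the gap to the nearest library over the range of the group (Dixon's 95% limit 0.568 for 7 libraries). In all, 20 groups were tested, and chance flags about 1 in 20. Hsph1 was at 13.6 FPKM in brimonidine 6, with the next library at 9.36 (ratio 0.615). Hspa5 was at 227 FPKM in NE 5, with the next at 175 (ratio 0.679). Hspb1 was at 54.9 FPKM in brimonidine 3, with the next at 42.6 (ratio 0.651). Brimonidine 6 was also the highest library of its group for Hspa8, Hsp90aa1, Hspa5 and Hspd1, and NE 5 the highest of its group for Hspa1b, Hspa8, Hsph1, Hspb1 and Hsp90aa1.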

How the results depend on the processing

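In brimonidine against NE, 0 of the 10 members passed under each of the alternatives. In NE against control the number lower was 3, and it was 6 with array weights, 1 after rescaling to equal totals (Hspa8) or by the median ratio (Dnajb1), 0 with control 2 left out and the median ratio together, and 1 to 4 with 1 library left out in turn. Of all genes 12% were lower, and under these alternatives 23.1%, 8.6%, 10.6%, 5.51% and 5.86% to 16.4%. With the minimum fold change it was 0 to 1 with 1 library left out. In brimonidine against control the number lower was 1, and it was 4 with all 17 libraries in 1 model, 5 with array weights, 2 after quantile normalization, 0 after either rescaling, without the filter, or with control 2 left out and the median ratio together, and 0 to 4 with 1 library left out in turn. Of all genes 12.3% were lower, and 18.1% in 1 model, 24.7% with array weights, 10.1% after quantile normalization, 8.9% and 11.5% after the rescalings to equal totals and by the median ratio, 6.58% without the filter, 7.15% with control 2 left out and the median ratio, and 7.45% to 18.7% with 1 library left out. The causes were not tested. Rescaling to equal totals and leaving out control 2 together with the median ratio were chosen after seeing the data. The median ratio moved the median of all genes in NE against control from −0.044 to 0.052.

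The replicate numbers did not pair the libraries (correlations of same-numbered libraries of −0.23 to 0.084), and with the replicate number as a block, which keeps 3 libraries a group, 0 members were lower in either comparison with control, as in the same libraries without the block. In NE against control 0 of 15426 genes passed with or without the block, so these fits cannot bear on the members. In brimonidine against control 1.69% of 15351 genes were lower with the block.

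Signs turned for members that did not pass. After quantile normalization Hspa5 was at −0.21 in NE against control, 0.046 in brimonidine against NE and −0.17 in brimonidine against control, where Hspa1a was at 0.084 and Hspd1 at −0.086. With array weights Hspa5 was at −0.040 and −0.077 in NE and brimonidine against control. By the median ratio Hspd1 was at 0.048 in NE, and Hspb1 at 0.036 and Hspe1 at 0.021 in brimonidine against control. With control 2 left out as well, Hspb1 was at 0.13 and 0.23 in NE and brimonidine, and Hspa1a at 0.14 and Hspa5 at −0.051 in brimonidine. In the 6 libraries of the block, with or without it, Hspa5 was at −0.011, Hspb1 and Hspe1 at 0.044 and Hspd1 at −0.058 in brimonidine against control. With 1 library left out, the range in NE against control was −0.053 to 0.19 for Hspa5 and −0.43 to 0.070 for Hspb1. In brimonidine against NE it was −0.11 to 0.027 for Hspa5, −0.036 to 0.11 for Hspa8, −0.020 to 0.26 for Hspb1 and −0.0088 to 0.076 for Hspe1. In brimonidine against control it was −0.36 to 0.11 for Hspa1a, −0.093 to 0.15 for Hspa5, −0.31 to 0.19 for Hspb1 and −0.019 to 0.077 for Hspd1.

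Hspa1a and Hspa1b summed gave −0.60 (adjusted p = 0.146) in NE against control. Hspa8 passed in 19 of 23 fits of that comparison, Dnajb1 in 17, Hsph1 in 8, Hsp90aa1 in 4, and Hspa1b and Hspe1 in 1 each (array weights). In brimonidine against control Dnajb1 passed in 9 of 23, Hsph1 and Hsp90aa1 in 4 each, Hspa8 in 3 and Hspa1b in 2. The fits share libraries, so these counts are not counts of independent tests. The fit with Hspa1a and Hspa1b summed gave the other members the same log2 fold changes as the fit without the sum. In NE against control the fits with and without the replicate block called 0 of 15426 genes, so no member could pass in them. Depth limits Hspa1a most.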
